A study of Mus musculus with 12 samples.

Results

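The 36 genes described here encode the enzymes that carry glucose to lactate, the carriers that bring glucose in and lactate out, the kinases that gate the entry of pyruvate into mitochondria, and the enzymes that build and break glycogen. They were taken by gene name from a table of 54532 mouse genes measured by RNA sequencing of cultured adult astrocytes. The 36 names matched 37 rows, because Aldoa is listed on 2 rows, and the row with low values (ENSMUSG00000114515, 0.0780 to 1.48 FPKM) was left aside. FPKM are sequenced fragments scaled to gene length and to a library size, here not the read total, so levels can be set side by side between genes. In the brain, astrocytes are known for taking up glucose, running glycolysis at a high rate, releasing lactate and holding nearly all glycogen. Most steps of the pathway have several enzyme forms from different genes, and tissues differ in which form they use.

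The study compared 12 libraries in 6 groups of 2, as 3 experiments with a control group each. All cells came from cortex and hippocampus of C57BL/6 mice, were dissociated with trypsin and papain and cultured in astrocyte medium, with no sorting step described. Ogt cKO libraries came from mice 4 months old carrying a floxed Ogt gene, which encodes the enzyme that adds O-GlcNAc sugar to proteins, and Glast-CreERT2, an inducible recombinase driven by the promoter of an astrocyte glutamate transporter. The cKO control libraries are also from mice of 4 months and carry the same genotype label (Glast-CreERT2::Ogtfloxp/Y), and the labels do not say how recombination was or was not induced. AD model libraries came from 5X APP mice, a transgenic model of Alzheimer's disease, and AD control libraries from wild-type mice; the sample labels give 6 months for both and the series text 5 months. Aβ-treated libraries came from wild-type mice of 2 months whose astrocytes received 20 µM Aβ 1-42, the peptide of Alzheimer plaques, for 72 hours in replicate 1 and 73 hours in replicate 2 by the sample labels (72 hours in the protocol), and Aβ control libraries from untreated wild-type mice of 2 months. Whether both replicates of a group are separate mice or cultures is not given, so the p-values measure only the spread between these libraries, which may be technical.

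Whole reads recovered from the FPKM gave 16418852 to 18705309 reads per library. Ogt measured 11.04 and 12.03 FPKM in Ogt cKO libraries, against 20.8 and 24.7 FPKM in cKO control libraries, while Aβ control libraries had 7.85 and 10.4 FPKM without any deletion. Replicates correlated across all tested genes at r = 0.944 in AD model and 0.948 in AD control libraries, and at 0.985 to 0.991 in the other 4 groups. Of 10 astrocyte markers, 9 passed the filter for testing and 1 stayed below 1 FPKM in all libraries. Gfap, 1 of the 9, was between 29.1 and 298 FPKM. Markers of microglia, oligodendrocytes, smooth muscle, fibroblasts and endothelium were also present. All marker lists other than the red cell list are given beside each comparison. Of 5 red cell markers, Hbb-bt, Hbb-bs and Hba-a2 were at 0 in all 12 libraries. The 5 summed to at most 0.122 FPKM, in an Aβ-treated library, and none was tested.

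Of the 36 genes, 35 reached 1 FPKM in at least 2 libraries and were tested. The exception was Slc16a7, a high-affinity lactate carrier known from neurons, at 0.205 to 0.506 FPKM. The 3 genes called in all experiments were the glucose carrier Slc2a1, higher in each, and the aldolase Aldoc and the phosphofructokinase Pfkp, lower in each. A further 13 genes were called in 2 experiments and 13 in 1. The 6 genes called in none were Hk1, Gpi1, Pfkfb2, Gapdh, Eno2 and Slc2a3. Over all tested genes, 42.3% were called in Ogt cKO, 17.1% in AD model and 35.9% in Aβ-treated cultures. How many of all tested genes were called in several experiments was not counted.

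In Ogt cKO cultures, 14 of the 35 tested genes rose and 8 fell. The genes that rose ran along the lower steps of glycolysis (Aldoa, Tpi1, Pgk1, Pgam1, Eno1, Pkm) to lactate (Ldha) and its exporter Slc16a3. Hk2, Slc2a1, Pdk3, Pdk4, Gys1 and Pygm rose with them. The genes that fell were Pfkm, Pfkp, Aldoc, Ldhb, Pdk1, Pdk2, Pygb and Ppp1r3c. The 22 calls were 62.9% of the genes tested, against 42.3% of all genes tested (22.6% higher and 19.8% lower), and the median log2 change was 0.16, against 0.00 over all tested genes. For 33 of the 35, the 2 Ogt cKO libraries did not overlap the 2 cKO control libraries, as was the case for 83.9% of all tested genes. The count was 12 without Ogt cKO replicate 1 and 11 without cKO control replicate 2, and 11 of the 22 calls held without each library in turn. Rescaling the FPKM to total reads moved the median of all genes by -0.19 log2 and gave 2218 genes higher and 4022 lower over all genes, in place of 3165 and 2769. Among the 35 genes it gave 13 higher and 11 lower. Summed astrocyte markers were at 99.9 to 113 FPKM in Ogt cKO libraries, against 486 to 558 FPKM in cKO control libraries, with 6 of 9 tested markers lower. Summed pericyte and smooth muscle markers were at 4027 to 4076 FPKM in Ogt cKO libraries, against 505 to 1011 FPKM in cKO control libraries, with 5 of 8 higher, and 6 of 7 endothelial markers were higher (252 to 262 FPKM in Ogt cKO libraries, against 42.2 to 52.0 FPKM in cKO control libraries). Microglia and macrophage markers summed to 3116 to 4169 FPKM in Ogt cKO libraries, against 7159 to 9181 FPKM in cKO control libraries, with 5 of 10 lower. Oligodendrocyte lineage markers summed to 24.6 to 27.3 FPKM in Ogt cKO libraries, against 99.8 to 211 FPKM in cKO control libraries, with 4 of 7 lower. Fibroblast and meninges markers summed to 1162 to 1188 FPKM in Ogt cKO libraries, against 743 to 868 FPKM in cKO control libraries, with 1 of 6 lower. Neuron markers summed to 94.3 to 119.6 FPKM in Ogt cKO libraries, against 108 to 182 FPKM in cKO control libraries, with 1 of 2 tested higher, and skeletal muscle markers to 57.0 to 63.3 FPKM in Ogt cKO libraries, against 3.38 to 6.16 FPKM in cKO control libraries, with 1 of 2 tested higher. In such bulk cultures fewer cells of a type and less RNA per cell cannot be told apart, and the part of these marker changes in the results on the 36 genes was not tested.

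In AD model cultures, 6 genes rose and 6 fell. The genes that rose were Slc2a1, the glycolytic activators Pfkfb3 and Pfkfb4, Pkm, Pdk4 and the glycogen phosphorylase Pygl. The genes that fell were Aldoc, Pfkm, Pfkp, Pdk2, the pyruvate dehydrogenase subunit Pdha1 and the glycogen targeting subunit Ppp1r3c. The 12 calls were 34.3% of the genes tested, against 17.1% of all genes tested (9.8% higher and 7.27% lower), and the median log2 change was 0.24, against -0.02 over all tested genes. In 25 of the 35 genes the 2 groups did not overlap, against 44.8% of all tested genes. With the spread taken from the 4 libraries of this experiment alone, 278 genes were called in place of 2392, and 3 of the 12 calls held (Aldoc, Pygl and Ppp1r3c). Endothelial markers summed to 104 to 357 FPKM in AD model libraries, against 82.2 to 185 FPKM in AD control libraries, with none of 7 called. Neuron markers summed to 61.7 to 78.6 FPKM in AD model libraries, against 77.9 to 139 FPKM in AD control libraries and skeletal muscle markers to 0.721 to 16.1 FPKM in AD model libraries, against 5.26 to 13.5 FPKM in AD control libraries, with none of 2 tested called in either list. Summed oligodendrocyte lineage markers were at 292 to 346 FPKM in AD model libraries, against 94.8 to 132 FPKM in AD control libraries, with 4 of 7 higher and 2 lower, and fibroblast and meninges markers at 342 to 747 FPKM in AD model libraries, against 936 to 1873 FPKM in AD control libraries, with 3 of 6 lower. Summed microglia and macrophage markers were at 3572 to 5762 FPKM in AD model libraries, against 1127 to 1657 FPKM in AD control libraries, with 6 of 10 higher. Summed pericyte and smooth muscle markers were at 210.1 to 759 FPKM in AD model libraries, against 1719.6 to 3842 FPKM in AD control libraries, with 6 of 8 lower, and astrocyte markers at 232 to 266 FPKM in AD model libraries, against 438 to 625 FPKM in AD control libraries, with 2 of 9 lower. The part of these changes in the results was not tested.

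In Aβ-treated cultures, 8 genes rose and 6 fell. The carriers Slc2a1, Slc16a1 and Slc16a3 rose together with Pfkfb3, Pfkl, Pdk1, the glycogen branching enzyme Gbe1 and Pygl. Aldoc, Pfkp, Pdk3, Pdha1, Pygb and Pygm fell. The 14 calls were 40.0% of the genes tested, against 35.9% of all genes tested (20.8% higher and 15.1% lower), a share near that of all genes, and the median log2 change was 0.00, against -0.04 over all tested genes. In 26 of the 35 genes the 2 groups did not overlap, against 76.8% of all tested genes. The count was 9 without Aβ-treated replicate 2, Aβ control replicate 1 or Aβ control replicate 2, and 10 without Aβ-treated replicate 1, and 7 of the 14 calls held without each library in turn. Quantile normalization moved the median of all genes to -0.13 log2 and the split over all genes to 2371 higher and 2634 lower, in place of 2915 higher and 2110 lower, and gave 9 higher and 6 lower among the 35 genes. Summed pericyte and smooth muscle markers were at 421 to 488 FPKM in Aβ-treated libraries, against 3602 to 4104 FPKM in Aβ control libraries, with 7 of 8 lower. Neuron markers summed to 43.9 to 50.3 FPKM in Aβ-treated libraries, against 93.3 to 121 FPKM in Aβ control libraries, with both tested markers lower, and skeletal muscle markers to 5.21 to 9.28 FPKM in Aβ-treated libraries, against 49.6 to 68.0 FPKM in Aβ control libraries, with 1 of 2 tested lower. Summed oligodendrocyte lineage markers were at 124 to 249.5 FPKM in Aβ-treated libraries, against 23.9 to 30.8 FPKM in Aβ control libraries, with 5 of 7 higher, and fibroblast and meninges markers at 279.7 to 472 FPKM in Aβ-treated libraries, against 772 to 989 FPKM in Aβ control libraries, with 1 of 6 higher and 4 lower. Summed endothelial markers were at 604 to 858 FPKM in Aβ-treated libraries, against 251 to 303 FPKM in Aβ control libraries, with 5 of 7 higher. Astrocyte markers were at 82.5 to 169 FPKM in Aβ-treated libraries, against 115 to 122 FPKM in Aβ control libraries, with 2 of 9 higher, and microglia and macrophage markers at 4907 to 6479 FPKM in Aβ-treated libraries, against 2364 to 3923 FPKM in Aβ control libraries, with 2 of 10 higher and 2 lower; the part of these changes in the results was not tested.

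**Figure D1:**
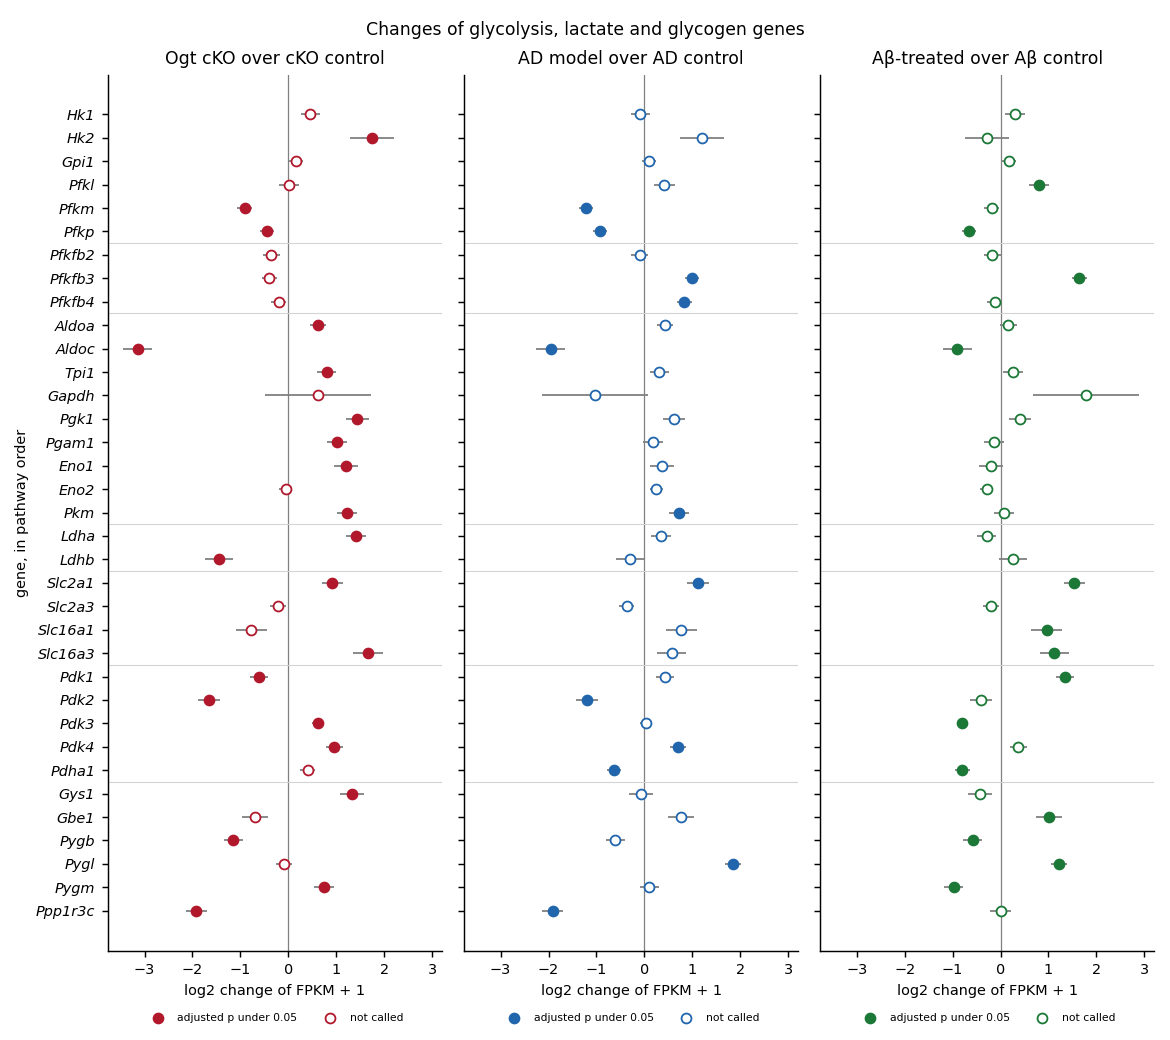
Log2 change of FPKM + 1 (x axis) of the 35 tested genes in pathway order (y axis) for Ogt cKO over cKO control, AD model over AD control and Aβ-treated over Aβ control. Filled points passed an adjusted p of 0.05, open points did not, and bars are 1 SE. Slc2a1 lies right of 0 in all 3 panels and Aldoc left of 0, from -3.14 in Ogt cKO to -0.90 in Aβ-treated cultures.

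The 3 control groups differed from each other in the same genes. Pgk1 measured 437 and 389 FPKM in Ogt cKO libraries, against 174 and 131 FPKM in cKO control libraries, but AD control libraries had 296 and 194 FPKM and Aβ control libraries 441 and 370.0 FPKM. Both Ogt cKO libraries lay between the 2 Aβ control libraries. In 11 of the 22 genes called in Ogt cKO cultures (Hk2, Aldoa, Tpi1, Pgk1, Pgam1, Eno1, Pkm, Ldha, Pdk1, Gys1 and Pygm), both Ogt cKO libraries lay inside the range of the 6 control libraries. The same held for 1 of the 12 genes called in AD model cultures (Pkm) and 2 of the 14 in Aβ-treated cultures (Pdk3 and Pygm). This share was not computed over all called genes in any experiment. Whether these counts are particular to the genes described here is therefore not known. Age and experiment differ together between the control groups and cannot be told apart. The cKO control also differs in its genotype label from the AD control and Aβ control, which are both wild-type.

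**Figure D2:**
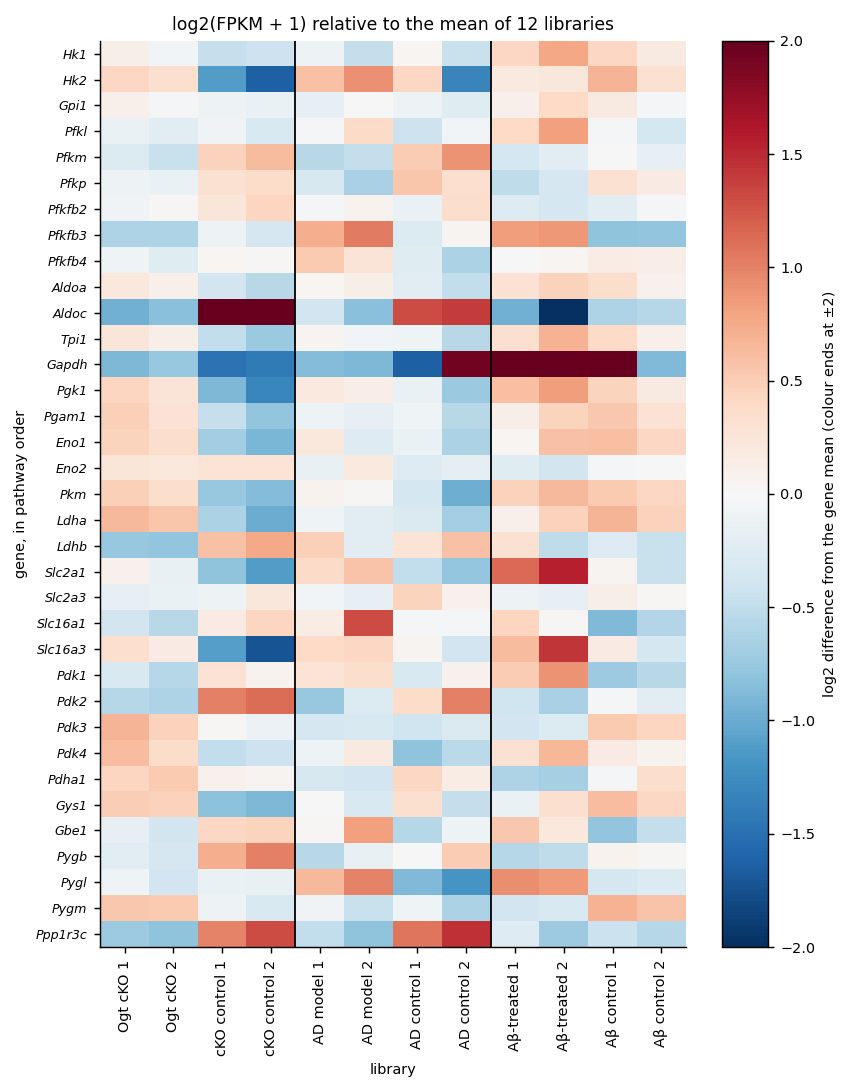
Colour shows log2(FPKM + 1) of each of the 35 tested genes (rows) in each of the 12 libraries (columns) minus the gene's mean over the 12, with the colour scale ending at ±2. The 2 cKO control libraries lie below the mean for Aldoa, Tpi1, Pgk1, Pgam1, Eno1, Pkm and Ldha, where the Ogt cKO and Aβ control libraries lie above it.

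Many genes of glycolysis are known targets of hypoxia inducible factors, which bind a short core. Only its form ACGTG was searched here, and other forms of the core were not counted. The promoters below, from the RefSeq annotation of GRCm38.p6, run from 250 bases before to 50 after the start of each gene and are shown for Slc2a1 (called higher in all 3 experiments), Pgk1 and Ldha (large changes in Ogt cKO cultures) and Ppp1r3c (the largest falls of the 36 genes after those of Aldoc). The windows are chr4:119108495-119108794 on the plus strand, chrX:106186850-106187149 on the plus strand, chr7:46845554-46845853 on the plus strand and chr19:36736555-36736854 on the minus strand, each written 5′ to 3′ on the strand of the gene, with capitals marking ACGTG or its reverse complement CACGT and with CACGTG holding both.
Slc2a1: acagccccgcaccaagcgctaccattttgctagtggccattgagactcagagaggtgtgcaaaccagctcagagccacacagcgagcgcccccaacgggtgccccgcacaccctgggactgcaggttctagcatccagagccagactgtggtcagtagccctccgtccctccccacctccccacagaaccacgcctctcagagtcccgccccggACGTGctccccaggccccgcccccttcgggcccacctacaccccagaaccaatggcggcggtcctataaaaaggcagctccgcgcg
Pgk1: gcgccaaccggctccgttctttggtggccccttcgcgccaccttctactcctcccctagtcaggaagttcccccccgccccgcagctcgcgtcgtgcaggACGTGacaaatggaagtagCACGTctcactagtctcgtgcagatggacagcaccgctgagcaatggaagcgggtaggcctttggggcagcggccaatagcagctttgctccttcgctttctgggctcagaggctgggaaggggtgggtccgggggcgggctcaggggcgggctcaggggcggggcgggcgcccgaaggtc
Ldha: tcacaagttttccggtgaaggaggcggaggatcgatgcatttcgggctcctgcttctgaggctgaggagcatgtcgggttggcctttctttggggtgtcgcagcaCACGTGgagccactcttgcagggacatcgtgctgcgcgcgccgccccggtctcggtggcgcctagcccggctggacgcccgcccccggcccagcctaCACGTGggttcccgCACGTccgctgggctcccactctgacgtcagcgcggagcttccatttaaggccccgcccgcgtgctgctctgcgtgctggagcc
Ppp1r3c: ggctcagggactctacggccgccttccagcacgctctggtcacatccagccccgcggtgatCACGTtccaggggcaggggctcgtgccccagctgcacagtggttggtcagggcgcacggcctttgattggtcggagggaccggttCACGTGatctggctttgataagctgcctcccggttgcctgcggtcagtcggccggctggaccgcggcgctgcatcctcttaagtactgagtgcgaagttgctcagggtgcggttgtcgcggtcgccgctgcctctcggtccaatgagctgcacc
ACGTG, searched on both strands and counting a CACGTG palindrome on each, had 1 match in the window of Slc2a1, 2 in that of Pgk1, 5 in that of Ldha (2 palindromes) and 3 in that of Ppp1r3c (1 palindrome). RefSeq windows were found for 34 of the 36 genes (not for Slc2a3 and Slc16a7), and 18 of the 34 first-listed windows (52.9%) held the letters, against 19.7% of the first-listed windows of 27025 genes. The 27025 genes were not matched to the 34 in expression or base composition, so the 2 shares are not of like genes. Ppp1r3c, with 3 matches, fell in Ogt cKO and AD model cultures. Slc2a1, with 1, rose in all 3 experiments, and Pgk1, with 2, and Ldha, with 5, rose in Ogt cKO cultures. Whether matches go with the direction of change was not tested, and these genes were chosen after the values were seen. A match describes these letters only and is no evidence of binding.

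Glucose enters astrocytes mainly through Slc2a1 (GLUT1), the glucose carrier of glia and of the blood-brain barrier. Slc2a1 measured 50.8 and 42.7 FPKM in Ogt cKO libraries, against 27.0 and 21.5 FPKM in cKO control libraries (log2 change 0.92 ± 0.22 SE, adjusted p = 0.012). Slc2a1 was at 62.6 and 71.3 FPKM in AD model libraries, against 33.4 and 27.4 FPKM in AD control libraries (log2 change 1.12 ± 0.22 SE, adjusted p = 0.0087). For Slc2a1, Aβ-treated libraries had 106 and 141 FPKM, against 49.7 and 34.7 FPKM in Aβ control libraries (log2 change 1.54 ± 0.22 SE, adjusted p = 0.0010). Both libraries of each group lay above both of its control group, with the highest levels after Aβ. The Ogt cKO call of Slc2a1 was lost without Ogt cKO replicate 1 (adjusted p = 0.082) or without cKO control replicate 2 (adjusted p = 0.090). Slc2a3 (GLUT3), the glucose carrier of neurons, was low throughout. Slc2a3 measured 1.33 and 1.39 FPKM in Ogt cKO libraries, against 1.43 and 2.07 FPKM in cKO control libraries (log2 change -0.21 ± 0.16 SE, adjusted p = 0.32). Slc2a3 was at 1.51 and 1.34 FPKM in AD model libraries, against 2.56 and 1.78 FPKM in AD control libraries (log2 change -0.37 ± 0.16 SE, adjusted p = 0.17). For Slc2a3, Aβ-treated libraries had 1.45 and 1.34 FPKM, against 1.84 and 1.65 FPKM in Aβ control libraries (log2 change -0.20 ± 0.16 SE, adjusted p = 0.37). It was not called in any experiment, although its libraries did not overlap in any of the 3. Of the summed FPKM of both carriers, Slc2a1 made up 97.1% ± 0.411 in Ogt cKO libraries and 93.1% ± 2.64 in cKO control libraries (SD, n = 2 each, as for all shares below). Shares are given with no test, since 2 libraries against 2 cannot give an exact two-sided permutation p below 0.333.

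Hexokinase traps glucose as glucose 6-phosphate. Hk1 is the constitutive form of brain and Hk2 the inducible one. Hk1 measured 26.1 and 23.1 FPKM in Ogt cKO libraries, against 17.2 and 17.9 FPKM in cKO control libraries (log2 change 0.46 ± 0.21 SE, adjusted p = 0.097). Hk1 was at 22.4 and 17.1 FPKM in AD model libraries, against 24.9 and 17.4 FPKM in AD control libraries (log2 change -0.08 ± 0.21 SE, adjusted p = 0.83). For Hk1, Aβ-treated libraries had 32.4 and 42.0 FPKM, against 32.6 and 27.4 FPKM in Aβ control libraries (log2 change 0.30 ± 0.21 SE, adjusted p = 0.28). No change of Hk1 passed the test. Hk2 measured 15.1 and 14.2 FPKM in Ogt cKO libraries, against 4.55 and 2.90 FPKM in cKO control libraries (log2 change 1.75 ± 0.45 SE, adjusted p = 0.016). Hk2 was at 17.1 and 21.8 FPKM in AD model libraries, against 15.1 and 3.85 FPKM in AD control libraries (log2 change 1.20 ± 0.45 SE, adjusted p = 0.11). For Hk2, Aβ-treated libraries had 12.8 and 13.2 FPKM, against 18.3 and 14.0 FPKM in Aβ control libraries (log2 change -0.28 ± 0.45 SE, adjusted p = 0.65). Hk2 rose in Ogt cKO cultures, and its AD control replicates differed by more than the 2 group means of that experiment, replicate 2 being low. For Hk2, the Ogt cKO call was lost without Ogt cKO replicate 1 (adjusted p = 0.079), without Ogt cKO replicate 2 (adjusted p = 0.065) or without cKO control replicate 2 (adjusted p = 0.10), and the AD model change passed without AD control replicate 1 (log2 change 2.06, adjusted p = 0.0016). The share of Hk2 in hexokinase was 37.3% ± 0.936 in Ogt cKO libraries and 17.4% ± 4.91 in cKO control libraries, and 49.6% ± 9.03 in AD model libraries and 28.0% ± 13.9 in AD control libraries. Gpi1, the isomerase of the next step, was at 59.4 to 93.7 FPKM in the 12 libraries and was not called.

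Phosphofructokinase commits glucose to glycolysis and has liver (Pfkl), muscle (Pfkm) and platelet (Pfkp) forms, all found in brain. Pfkl measured 31.6 and 29.3 FPKM in Ogt cKO libraries, against 32.8 and 27.9 FPKM in cKO control libraries (log2 change 0.01 ± 0.21 SE, adjusted p = 0.98). Pfkl was at 34.2 and 45.6 FPKM in AD model libraries, against 25.8 and 33.3 FPKM in AD control libraries (log2 change 0.42 ± 0.21 SE, adjusted p = 0.23). For Pfkl, Aβ-treated libraries had 45.8 and 62.1 FPKM, against 33.8 and 27.1 FPKM in Aβ control libraries (log2 change 0.80 ± 0.21 SE, adjusted p = 0.018). Pfkl rose in Aβ-treated cultures, and the Aβ-treated call of Pfkl was lost without Aβ-treated replicate 2 (adjusted p = 0.12) or without Aβ control replicate 2 (adjusted p = 0.10). Pfkm measured 21.3 and 18.7 FPKM in Ogt cKO libraries, against 35.9 and 40.6 FPKM in cKO control libraries (log2 change -0.91 ± 0.16 SE, adjusted p = 0.0037). Pfkm was at 17.3 and 18.3 FPKM in AD model libraries, against 37.1 and 49.2 FPKM in AD control libraries (log2 change -1.22 ± 0.16 SE, adjusted p = 0.0011). For Pfkm, Aβ-treated libraries had 20.1 and 22.3 FPKM, against 25.8 and 22.9 FPKM in Aβ control libraries (log2 change -0.19 ± 0.16 SE, adjusted p = 0.37). Pfkm fell in Ogt cKO and AD model cultures, with both libraries of each below both of its control. Pfkp measured 10.4 and 10.1 FPKM in Ogt cKO libraries, against 14.1 and 14.8 FPKM in cKO control libraries (log2 change -0.45 ± 0.15 SE, adjusted p = 0.034). Pfkp was at 8.78 and 6.77 FPKM in AD model libraries, against 17.0 and 14.4 FPKM in AD control libraries (log2 change -0.93 ± 0.15 SE, adjusted p = 0.0029). For Pfkp, Aβ-treated libraries had 7.57 and 8.72 FPKM, against 14.1 and 12.7 FPKM in Aβ control libraries (log2 change -0.65 ± 0.15 SE, adjusted p = 0.0082). Pfkp fell in all 3 experiments. The reads of Pfkp and of Pitrm1, which shares 748 exon bases with it on the other strand (774 to 1604 reads per library), cannot be told apart where strand is not recorded. The Ogt cKO call of Pfkp was lost without any 1 of the 4 libraries (adjusted p = 0.10 to 0.16) or with no filter (adjusted p = 0.057), and the Aβ-treated call of Pfkp was lost without Aβ-treated replicate 1 (adjusted p = 0.065) or without Aβ control replicate 1 (adjusted p = 0.060). The share of Pfkl was 60.6% ± 5.55 in AD model libraries and 33.3% ± 1.48 in AD control libraries, and 64.5% ± 3.08 in Aβ-treated libraries and 44.5% ± 1.90 in Aβ control libraries. It was 50.2% ± 0.386 in Ogt cKO libraries and 36.6% ± 4.33 in cKO control libraries.

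Fructose 2,6-bisphosphate is the strongest activator of phosphofructokinase, and the Pfkfb enzymes make and remove it. Pfkfb3, the form with the highest kinase over phosphatase activity, is known for low protein levels in neurons and high ones in astrocytes. Pfkfb3 measured 7.53 and 7.55 FPKM in Ogt cKO libraries, against 11.2 and 9.41 FPKM in cKO control libraries (log2 change -0.40 ± 0.15 SE, adjusted p = 0.062). Pfkfb3 was at 20.8 and 25.9 FPKM in AD model libraries, against 9.85 and 12.7 FPKM in AD control libraries (log2 change 0.99 ± 0.15 SE, adjusted p = 0.0027). For Pfkfb3, Aβ-treated libraries had 22.3 and 23.0 FPKM, against 6.54 and 6.61 FPKM in Aβ control libraries (log2 change 1.64 ± 0.15 SE, adjusted p = 1.1e-04). Pfkfb3 rose 2.08-fold in AD model and 3.45-fold in Aβ-treated cultures, on group means of FPKM, and was lower without passing the test in Ogt cKO cultures. Pfkfb3 passed the test in Ogt cKO cultures with FPKM rescaled to total reads (log2 change -0.62, adjusted p = 0.023), with voom (log2 change -0.69, adjusted p = 0.020), with the replicate block (log2 change -0.40, adjusted p = 0.026) and with the 4 libraries alone (log2 change -0.40, adjusted p = 0.027). Pfkfb4 followed in 1 of these experiments. Pfkfb4 measured 3.21 and 2.76 FPKM in Ogt cKO libraries, against 3.59 and 3.55 FPKM in cKO control libraries (log2 change -0.20 ± 0.16 SE, adjusted p = 0.32). Pfkfb4 was at 5.41 and 4.34 FPKM in AD model libraries, against 2.77 and 1.88 FPKM in AD control libraries (log2 change 0.83 ± 0.16 SE, adjusted p = 0.0070). For Pfkfb4, Aβ-treated libraries had 3.49 and 3.58 FPKM, against 3.93 and 3.91 FPKM in Aβ control libraries (log2 change -0.12 ± 0.16 SE, adjusted p = 0.58). Only in AD model cultures did Pfkfb4 pass the test, and the AD model change exceeded the Aβ-treated change (difference 0.95 ± 0.22 SE, adjusted p = 0.040, lost in 6 of the 8 fits that left out 1 of its libraries, at adjusted p = 0.068 to 0.13). Pfkfb2, the heart form, was near 1 FPKM. Pfkfb2 measured 0.946 and 1.08 FPKM in Ogt cKO libraries, against 1.43 and 1.75 FPKM in cKO control libraries (log2 change -0.36 ± 0.18 SE, adjusted p = 0.13). Pfkfb2 was at 0.998 and 1.15 FPKM in AD model libraries, against 0.876 and 1.61 FPKM in AD control libraries (log2 change -0.09 ± 0.18 SE, adjusted p = 0.78). For Pfkfb2, Aβ-treated libraries had 0.724 and 0.617 FPKM, against 0.750 and 1.02 FPKM in Aβ control libraries (log2 change -0.17 ± 0.18 SE, adjusted p = 0.48). No change of Pfkfb2 was called. The summed FPKM of the 3 genes were 11.5 ± 0.205 in Ogt cKO and 15.4 ± 1.05 in cKO control libraries, 29.3 ± 2.97 in AD model and 14.8 ± 1.87 in AD control libraries, and 26.9 ± 0.475 in Aβ-treated and 11.4 ± 0.222 in Aβ control libraries.

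Aldolase splits the sugar bisphosphate, with Aldoa the general form and Aldoc the brain form that also serves as an astrocyte marker. Aldoc measured 4.99 and 5.50 FPKM in Ogt cKO libraries, against 49.4 and 59.3 FPKM in cKO control libraries (log2 change -3.14 ± 0.30 SE, adjusted p = 6.1e-04). Aldoc was at 7.92 and 5.54 FPKM in AD model libraries, against 27.7 and 29.5 FPKM in AD control libraries (log2 change -1.95 ± 0.30 SE, adjusted p = 0.0029). For Aldoc, Aβ-treated libraries had 4.99 and 1.82 FPKM, against 6.56 and 6.79 FPKM in Aβ control libraries (log2 change -0.90 ± 0.30 SE, adjusted p = 0.045). Aldoc fell in all 3 experiments, to group means 10.4-fold below the control in Ogt cKO, 4.25-fold in AD model and 1.96-fold in Aβ-treated cultures. Its level in Aβ control libraries was already near that of Ogt cKO libraries, and the Aβ-treated call of Aldoc was lost without Aβ-treated replicate 2 (adjusted p = 0.24), without Aβ control replicate 1 (adjusted p = 0.15), without Aβ control replicate 2 (adjusted p = 0.13), with no filter (adjusted p = 0.099), with FPKM rescaled to total reads (adjusted p = 0.071), with voom on recovered reads (adjusted p = 0.062) or with the 4 libraries of that comparison alone (adjusted p = 0.096). Other astrocyte markers fell beside it in Ogt cKO cultures, where Slc1a3, the glutamate transporter whose promoter drives the recombinase, had 2.58 and 2.45 FPKM in Ogt cKO libraries, against 22.4 and 24.6 FPKM in cKO control libraries (log2 change -2.80 ± 0.24 SE, adjusted p = 4.5e-04). Aldoa measured 479 and 445 FPKM in Ogt cKO libraries, against 319 and 282 FPKM in cKO control libraries (log2 change 0.62 ± 0.17 SE, adjusted p = 0.020). Aldoa was at 425 and 452 FPKM in AD model libraries, against 358 and 295 FPKM in AD control libraries (log2 change 0.43 ± 0.17 SE, adjusted p = 0.13). For Aldoa, Aβ-treated libraries had 509 and 574 FPKM, against 529 and 439.6 FPKM in Aβ control libraries (log2 change 0.16 ± 0.17 SE, adjusted p = 0.48). Aldoa rose in Ogt cKO cultures by this fit, but quantile normalization reversed its sign (log2 change -0.068, adjusted p = 0.71). For Aldoa, the Ogt cKO call was lost without any 1 of the 4 libraries (adjusted p = 0.057 to 0.13), with no filter (adjusted p = 0.063), with quantile normalization (adjusted p = 0.71), with FPKM rescaled to total reads (adjusted p = 0.0530) or with voom on recovered reads (adjusted p = 0.0513). Of both aldolases, Aldoc made up 1.13% ± 0.136 in Ogt cKO libraries and 15.4% ± 2.83 in cKO control libraries. Its share was 1.52% ± 0.437 in AD model libraries and 8.12% ± 1.34 in AD control libraries.

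Among the genes of the payoff steps, Tpi1, Pgk1, Pgam1, Eno1 and Pkm rose in Ogt cKO cultures, while Gapdh and Eno2 were not called. Pgk1 makes the first ATP of the pathway. Pgk1 measured 437 and 389 FPKM in Ogt cKO libraries, against 174 and 131 FPKM in cKO control libraries (log2 change 1.44 ± 0.23 SE, adjusted p = 0.0031). Pgk1 was at 374 and 359 FPKM in AD model libraries, against 296 and 194 FPKM in AD control libraries (log2 change 0.61 ± 0.23 SE, adjusted p = 0.11). For Pgk1, Aβ-treated libraries had 492 and 584 FPKM, against 441 and 370.0 FPKM in Aβ control libraries (log2 change 0.41 ± 0.23 SE, adjusted p = 0.20). Pgk1 rose in Ogt cKO cultures, and its AD model and Aβ-treated libraries also lay above their controls without passing the test. Pgk1 passed the test in AD model cultures with quantile normalization (log2 change 0.59, adjusted p = 0.033), with voom (log2 change 0.64, adjusted p = 0.0495) and without AD control replicate 1 (log2 change 0.91, adjusted p = 0.026). Pkm, pyruvate kinase, makes pyruvate and the last ATP, and its M1 and M2 splice forms are not separated in a gene table. Pkm measured 645 and 589.9 FPKM in Ogt cKO libraries, against 273 and 252 FPKM in cKO control libraries (log2 change 1.23 ± 0.21 SE, adjusted p = 0.0036). Pkm was at 485 and 471 FPKM in AD model libraries, against 361 and 234 FPKM in AD control libraries (log2 change 0.71 ± 0.21 SE, adjusted p = 0.046). For Pkm, Aβ-treated libraries had 634 and 723 FPKM, against 668 and 618 FPKM in Aβ control libraries (log2 change 0.08 ± 0.21 SE, adjusted p = 0.80). Pkm rose in Ogt cKO and AD model cultures, and the AD model call of Pkm was lost without AD model replicate 1 (adjusted p = 0.12), without AD model replicate 2 (adjusted p = 0.095), without AD control replicate 2 (adjusted p = 0.14) or with no filter (adjusted p = 0.13). Triose phosphate isomerase Tpi1 and phosphoglycerate mutase Pgam1 rose in Ogt cKO cultures only as far as calls go. Tpi1 measured 182 and 167 FPKM in Ogt cKO libraries, against 109 and 91.6 FPKM in cKO control libraries (log2 change 0.80 ± 0.20 SE, adjusted p = 0.015). Pgam1 measured 331 and 290.2 FPKM in Ogt cKO libraries, against 172 and 137 FPKM in cKO control libraries (log2 change 1.01 ± 0.21 SE, adjusted p = 0.0070). In AD model and Aβ-treated cultures their log2 changes lay between -0.13 and 0.31 and were not called. The Ogt cKO call of Tpi1 was lost without Ogt cKO replicate 1 (adjusted p = 0.091), without Ogt cKO replicate 2 (adjusted p = 0.057), without cKO control replicate 2 (adjusted p = 0.11) or with quantile normalization (adjusted p = 0.11). For Pgam1, the Ogt cKO call was lost without Ogt cKO replicate 1 (adjusted p = 0.056), without cKO control replicate 2 (adjusted p = 0.064) or with quantile normalization (adjusted p = 0.068).

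Enolase has a general form, Eno1, and a neuronal form, Eno2. Eno1 measured 437 and 409 FPKM in Ogt cKO libraries, against 197 and 169 FPKM in cKO control libraries (log2 change 1.21 ± 0.25 SE, adjusted p = 0.0071). Eno1 was at 369 and 268 FPKM in AD model libraries, against 291 and 205 FPKM in AD control libraries (log2 change 0.36 ± 0.25 SE, adjusted p = 0.39). For Eno1, Aβ-treated libraries had 329 and 481 FPKM, against 485 and 425 FPKM in Aβ control libraries (log2 change -0.19 ± 0.25 SE, adjusted p = 0.58). Eno1 rose in Ogt cKO cultures, and the Ogt cKO call of Eno1 was lost without Ogt cKO replicate 1 (adjusted p = 0.0508), without cKO control replicate 2 (adjusted p = 0.059) or with quantile normalization (adjusted p = 0.068). The near-identical gene Eno1b (99.5% identity) took 5418 and 939 reads in Aβ-treated libraries, against 1014 and 885 reads in Aβ control libraries, and Eno1 was low in the same Aβ-treated replicate 1, so its level there is uncertain. Eno2 measured 4.61 and 4.49 FPKM in Ogt cKO libraries, against 4.76 and 4.76 FPKM in cKO control libraries (log2 change -0.05 ± 0.13 SE, adjusted p = 0.76). Eno2 was at 3.31 and 4.44 FPKM in AD model libraries, against 2.97 and 3.20 FPKM in AD control libraries (log2 change 0.24 ± 0.13 SE, adjusted p = 0.27). For Eno2, Aβ-treated libraries had 3.04 and 2.70 FPKM, against 3.65 and 3.78 FPKM in Aβ control libraries (log2 change -0.29 ± 0.13 SE, adjusted p = 0.12). Eno2 was not called and stayed under 5 FPKM. The Gapdh row cannot be read as the level of the enzyme, glyceraldehyde 3-phosphate dehydrogenase. It held 1.60 to 48.7 FPKM, next to 131 to 584 FPKM for Pgk1 of the following step, and replicates differed widely: Aβ control libraries had 33.7 and 3.38 FPKM and AD control libraries 1.60 and 29.8 FPKM. The table lists 160 rows that match Gapdh at 90% identity or more over at least 300 bases, 126 of them with reads, and these took 29.2 to 92.8% of the reads of Gapdh and its copies together. Gapdh was not called in any experiment, and the cause of its low row was not tested.

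**Figure D3:**
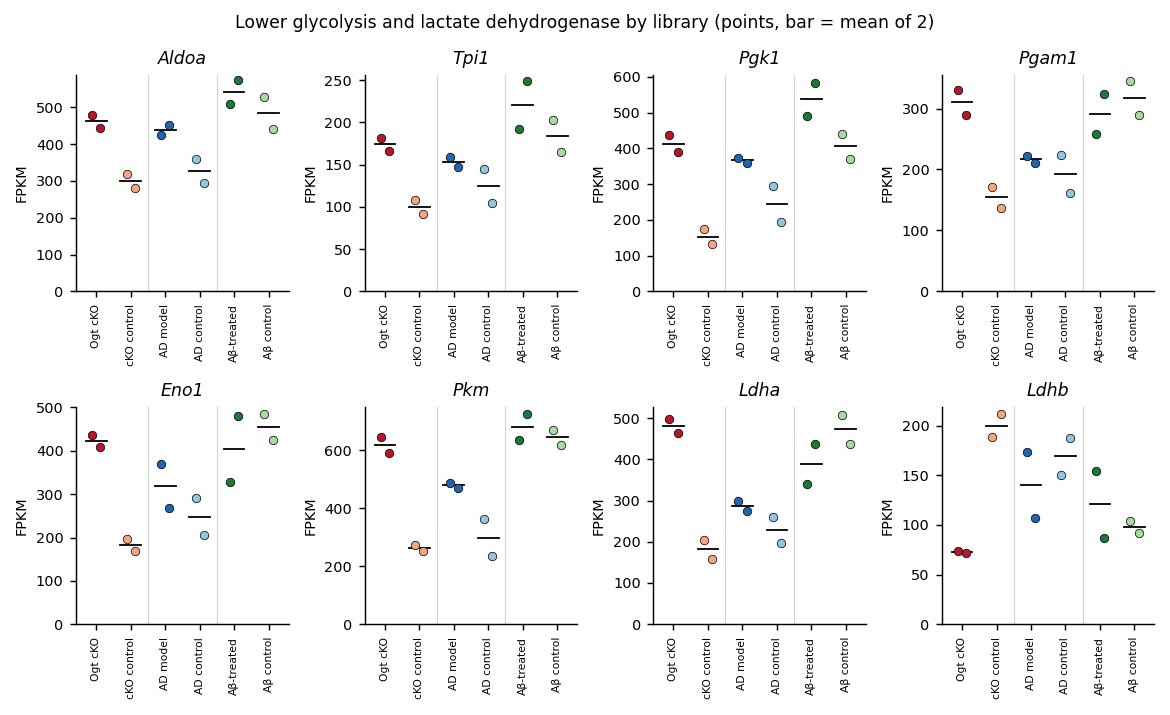
FPKM (y axis) of 8 genes from Aldoa to Ldhb in each library (points) of the 6 groups (x axis), with bars at the mean of 2. For Pgk1, Ogt cKO libraries reached 437 and 389 FPKM, above the cKO control at 174 and 131 FPKM and level with the Aβ control at 441 and 370.0 FPKM; Ldhb runs the other way.

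Lactate dehydrogenase interconverts pyruvate and lactate. Subunits from Ldha favour lactate formation and prevail in astrocytes, and those from Ldhb prevail in neurons and heart. Ldha measured 499 and 464 FPKM in Ogt cKO libraries, against 204 and 158 FPKM in cKO control libraries (log2 change 1.42 ± 0.21 SE, adjusted p = 0.0022). Ldha was at 299 and 275 FPKM in AD model libraries, against 259 and 197 FPKM in AD control libraries (log2 change 0.34 ± 0.21 SE, adjusted p = 0.32). For Ldha, Aβ-treated libraries had 339 and 436 FPKM, against 508 and 437 FPKM in Aβ control libraries (log2 change -0.29 ± 0.21 SE, adjusted p = 0.29). Ldha rose in Ogt cKO cultures alone by its calls, and its Ogt cKO change exceeded both the AD model change (difference 1.07 ± 0.29 SE, adjusted p = 0.029, lost in 5 of the 8 fits that left out 1 of its libraries, at adjusted p = 0.071 to 0.12) and the Aβ-treated change (difference 1.71 ± 0.29 SE, adjusted p = 0.0019). Ldhb measured 73.3 and 71.8 FPKM in Ogt cKO libraries, against 188 and 211 FPKM in cKO control libraries (log2 change -1.45 ± 0.29 SE, adjusted p = 0.0065). Ldhb was at 174 and 106 FPKM in AD model libraries, against 150.4 and 188 FPKM in AD control libraries (log2 change -0.30 ± 0.29 SE, adjusted p = 0.56). For Ldhb, Aβ-treated libraries had 155 and 87.3 FPKM, against 104 and 91.5 FPKM in Aβ control libraries (log2 change 0.25 ± 0.29 SE, adjusted p = 0.53). Ldhb fell in Ogt cKO cultures while Ldha rose, and the Ogt cKO call of Ldhb was lost without cKO control replicate 2 (adjusted p = 0.0511). Of the FPKM of both genes, Ldha made up 86.9% ± 0.401 in Ogt cKO libraries and 47.4% ± 6.52 in cKO control libraries. The share was 67.6% ± 6.24 in AD model libraries and 57.2% ± 8.57 in AD control libraries, and 76.0% ± 10.4 in Aβ-treated libraries and 82.9% ± 0.247 in Aβ control libraries. Aβ control libraries had nearly the Ldha share of Ogt cKO libraries.

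Lactate leaves and enters cells through monocarboxylate carriers, of which Slc16a3 (MCT4) is known as the exporter of glycolytic cells and Slc16a1 (MCT1) as a general carrier. Slc16a3 measured 23.5 and 20.6 FPKM in Ogt cKO libraries, against 8.07 and 4.83 FPKM in cKO control libraries (log2 change 1.66 ± 0.31 SE, adjusted p = 0.0048). Slc16a3 was at 24.5 and 24.7 FPKM in AD model libraries, against 19.1 and 13.8 FPKM in AD control libraries (log2 change 0.57 ± 0.31 SE, adjusted p = 0.27). For Slc16a3, Aβ-treated libraries had 29.1 and 51.1 FPKM, against 20.7 and 14.1 FPKM in Aβ control libraries (log2 change 1.13 ± 0.31 SE, adjusted p = 0.020). Slc16a3 rose in Ogt cKO and Aβ-treated cultures, with no overlap of groups in any experiment, and the Aβ-treated call of Slc16a3 was lost without Aβ-treated replicate 2 (adjusted p = 0.13), without Aβ control replicate 2 (adjusted p = 0.12) or with no filter (adjusted p = 0.0504). Slc16a1 measured 9.41 and 8.25 FPKM in Ogt cKO libraries, against 14.3 and 17.3 FPKM in cKO control libraries (log2 change -0.77 ± 0.32 SE, adjusted p = 0.080). Slc16a1 was at 14.1 and 32.7 FPKM in AD model libraries, against 12.3 and 12.2 FPKM in AD control libraries (log2 change 0.77 ± 0.32 SE, adjusted p = 0.15). For Slc16a1, Aβ-treated libraries had 17.4 and 12.9 FPKM, against 6.36 and 8.12 FPKM in Aβ control libraries (log2 change 0.97 ± 0.32 SE, adjusted p = 0.044). Slc16a1 rose in Aβ-treated cultures only as far as calls go, and AD model replicate 2 was far above the other libraries. Slc16a1 passed the test in Ogt cKO cultures with FPKM rescaled to total reads (log2 change -0.998, adjusted p = 0.035), with voom (log2 change -1.08, adjusted p = 0.036) and with the 4 libraries alone (log2 change -0.77, adjusted p = 0.0070). Slc16a1 passed the test in AD model cultures without AD model replicate 1 (log2 change 1.35, adjusted p = 0.0042). The Aβ-treated call of Slc16a1 was lost without any 1 of the 4 libraries (adjusted p = 0.072 to 0.22), with no filter (adjusted p = 0.097) or with quantile normalization (adjusted p = 0.075). The change of Slc16a1 in Ogt cKO cultures lay below those in AD model (difference -1.54 ± 0.46 SE, adjusted p = 0.038, lost in 6 of the 8 fits that left out 1 of its libraries, at adjusted p = 0.0538 to 0.12) and Aβ-treated cultures (difference -1.74 ± 0.46 SE, adjusted p = 0.012). Of the summed FPKM of the 3 carriers, Slc16a3 made up 70.8% ± 0.169 in Ogt cKO libraries and 28.5% ± 9.82 in cKO control libraries. Slc16a7 (MCT2) held at most 1.59% in any library.

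**Figure D4:**
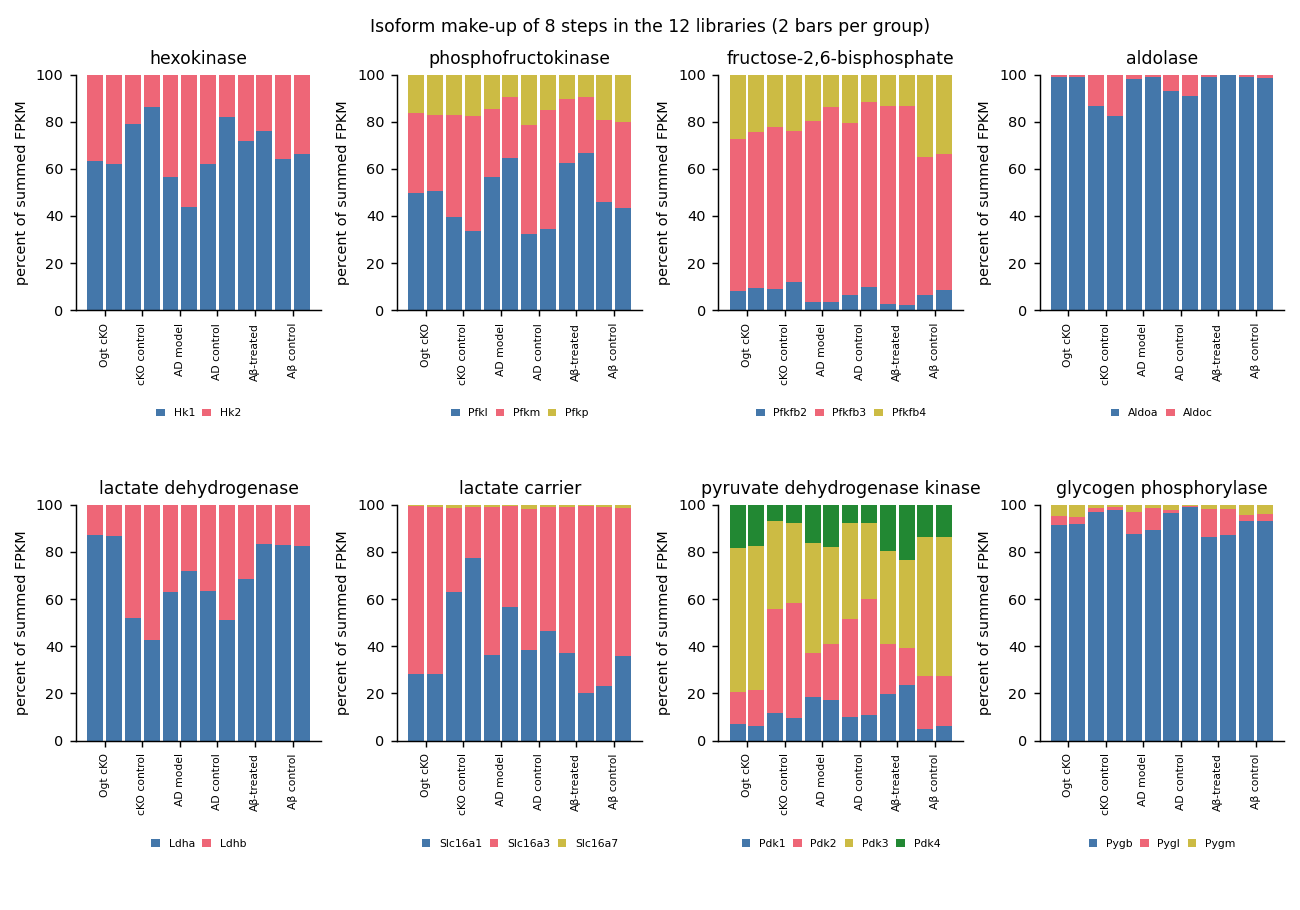
Share of each gene in the summed FPKM of its step (y axis, percent) for 8 steps in the 12 libraries, with 2 bars per group in the order of the labels. The Ldha share is 86.9% in Ogt cKO and 47.4% in cKO control libraries, and Pygl fills 9.52% of glycogen phosphorylase in AD model and 0.871% in AD control libraries.

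Pyruvate enters mitochondria for oxidation through pyruvate dehydrogenase, whose catalytic subunit Pdha1 is switched off when 1 of the kinases Pdk1 to Pdk4 phosphorylates it. Pdha1 measured 45.8 and 49.4 FPKM in Ogt cKO libraries, against 36.2 and 35.2 FPKM in cKO control libraries (log2 change 0.40 ± 0.15 SE, adjusted p = 0.057). Pdha1 was at 27.1 and 25.7 FPKM in AD model libraries, against 45.6 and 37.8 FPKM in AD control libraries (log2 change -0.64 ± 0.15 SE, adjusted p = 0.020). For Pdha1, Aβ-treated libraries had 21.6 and 21.1 FPKM, against 32.8 and 43.5 FPKM in Aβ control libraries (log2 change -0.79 ± 0.15 SE, adjusted p = 0.0040). Pdha1 fell in AD model and Aβ-treated cultures and was not called in Ogt cKO cultures, where it lay above the control. The Ogt cKO change differed from both others (difference 1.04 ± 0.21 SE, adjusted p = 0.010 against AD model, and 1.20 ± 0.21 SE, adjusted p = 0.0022 against Aβ-treated). For Pdha1, the AD model call was lost without AD model replicate 2 (adjusted p = 0.062) or without AD control replicate 1 (adjusted p = 0.083). Pdk1, a known target of hypoxia inducible factor, went opposite ways. Pdk1 measured 2.93 and 2.28 FPKM in Ogt cKO libraries, against 4.93 and 4.09 FPKM in cKO control libraries (log2 change -0.62 ± 0.19 SE, adjusted p = 0.030). Pdk1 was at 4.86 and 5.21 FPKM in AD model libraries, against 2.92 and 4.16 FPKM in AD control libraries (log2 change 0.42 ± 0.19 SE, adjusted p = 0.18). For Pdk1, Aβ-treated libraries had 5.90 and 8.11 FPKM, against 1.95 and 2.31 FPKM in Aβ control libraries (log2 change 1.34 ± 0.19 SE, adjusted p = 0.0010). It fell in Ogt cKO cultures and rose 3.29-fold on group means in Aβ-treated cultures (difference -1.96 ± 0.27 SE, adjusted p = 7.3e-04). The Ogt cKO call of Pdk1 was lost without any 1 of the 4 libraries (adjusted p = 0.066 to 0.17), with no filter (adjusted p = 0.067) or with quantile normalization (adjusted p = 0.0532).

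Pdk2 is the widely expressed kinase of the family. Pdk2 measured 5.69 and 5.48 FPKM in Ogt cKO libraries, against 18.9 and 20.6 FPKM in cKO control libraries (log2 change -1.66 ± 0.22 SE, adjusted p = 0.0017). Pdk2 was at 4.88 and 7.24 FPKM in AD model libraries, against 11.9 and 18.9 FPKM in AD control libraries (log2 change -1.20 ± 0.22 SE, adjusted p = 0.0069). For Pdk2, Aβ-treated libraries had 6.50 and 5.33 FPKM, against 8.70 and 7.61 FPKM in Aβ control libraries (log2 change -0.41 ± 0.22 SE, adjusted p = 0.18). Pdk2 fell in Ogt cKO and AD model cultures, where it lay at 4.88 to 7.24 FPKM, near the Aβ-treated libraries. Pdk3 was the most abundant kinase by FPKM in Ogt cKO, AD model, Aβ-treated and Aβ control cultures. Pdk3 measured 25.7 and 21.9 FPKM in Ogt cKO libraries, against 15.9 and 14.3 FPKM in cKO control libraries (log2 change 0.62 ± 0.12 SE, adjusted p = 0.0054). Pdk3 was at 12.2 and 12.5 FPKM in AD model libraries, against 11.6 and 12.6 FPKM in AD control libraries (log2 change 0.03 ± 0.12 SE, adjusted p = 0.91). For Pdk3, Aβ-treated libraries had 11.8 and 12.8 FPKM, against 22.8 and 21.4 FPKM in Aβ control libraries (log2 change -0.80 ± 0.12 SE, adjusted p = 0.0013). Its opposite changes in Ogt cKO and Aβ-treated cultures differed by 1.42 ± 0.17 SE, adjusted p = 4.0e-04. For Pdk3, the Ogt cKO call was lost without Ogt cKO replicate 1 (adjusted p = 0.0531) or without cKO control replicate 2 (adjusted p = 0.0545). Pdk4, the kinase known for induction by fasting, was low. Pdk4 measured 7.70 and 6.30 FPKM in Ogt cKO libraries, against 2.99 and 3.22 FPKM in cKO control libraries (log2 change 0.96 ± 0.17 SE, adjusted p = 0.0045). Pdk4 was at 4.24 and 5.38 FPKM in AD model libraries, against 2.24 and 2.90 FPKM in AD control libraries (log2 change 0.70 ± 0.17 SE, adjusted p = 0.024). For Pdk4, Aβ-treated libraries had 5.95 and 7.96 FPKM, against 5.31 and 4.90 FPKM in Aβ control libraries (log2 change 0.37 ± 0.17 SE, adjusted p = 0.12). Pdk4 rose in Ogt cKO and AD model cultures, and the AD model call of Pdk4 was lost without AD model replicate 2 (adjusted p = 0.099), without AD control replicate 1 (adjusted p = 0.099) or with no filter (adjusted p = 0.0516). The share of Pdk2 among the 4 kinases was 14.4% ± 1.20 in Ogt cKO libraries and 46.5% ± 3.21 in cKO control libraries, and that of Pdk3 was 61.1% ± 0.196 in Ogt cKO libraries and 35.6% ± 2.35 in cKO control libraries. Pdk1 held 21.6% ± 2.96 in Aβ-treated libraries and 5.71% ± 0.949 in Aβ control libraries.

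Glycogen is built by glycogen synthase Gys1 and the branching enzyme Gbe1, and Ppp1r3c targets protein phosphatase 1 to glycogen, which favours synthesis. Ppp1r3c measured 0.514 and 0.436 FPKM in Ogt cKO libraries, against 4.00 and 5.22 FPKM in cKO control libraries (log2 change -1.92 ± 0.22 SE, adjusted p = 9.8e-04). Ppp1r3c was at 0.791 and 0.445 FPKM in AD model libraries, against 4.28 and 5.97 FPKM in AD control libraries (log2 change -1.91 ± 0.22 SE, adjusted p = 5.6e-04). For Ppp1r3c, Aβ-treated libraries had 1.11 and 0.515 FPKM, against 0.870 and 0.699 FPKM in Aβ control libraries (log2 change 0.00 ± 0.22 SE, adjusted p = 0.99). Ppp1r3c fell to group means 9.71-fold below control in Ogt cKO and 8.30-fold in AD model cultures, while both groups of the Aβ experiment were already near or under 1 FPKM. The AD model and Aβ-treated changes differed (difference -1.92 ± 0.30 SE, adjusted p = 0.012). Gys1 measured 18.1 and 17.7 FPKM in Ogt cKO libraries, against 6.70 and 6.28 FPKM in cKO control libraries (log2 change 1.34 ± 0.25 SE, adjusted p = 0.0052). Gys1 was at 12.7 and 10.0 FPKM in AD model libraries, against 16.1 and 8.82 FPKM in AD control libraries (log2 change -0.07 ± 0.25 SE, adjusted p = 0.89). For Gys1, Aβ-treated libraries had 11.4 and 16.0 FPKM, against 20.0 and 17.2 FPKM in Aβ control libraries (log2 change -0.43 ± 0.25 SE, adjusted p = 0.21). Gys1 rose in Ogt cKO cultures, and the AD control replicates spanned the AD model ones. Its exons share 310 bases with Ruvbl2 on the other strand (790 to 1458 reads per library), and without strand those reads cannot be told apart. Gbe1 measured 4.10 and 3.45 FPKM in Ogt cKO libraries, against 6.67 and 6.82 FPKM in cKO control libraries (log2 change -0.70 ± 0.27 SE, adjusted p = 0.062). Gbe1 was at 4.82 and 9.17 FPKM in AD model libraries, against 2.85 and 4.34 FPKM in AD control libraries (log2 change 0.76 ± 0.27 SE, adjusted p = 0.089). For Gbe1, Aβ-treated libraries had 7.34 and 5.62 FPKM, against 2.32 and 3.12 FPKM in Aβ control libraries (log2 change 1.01 ± 0.27 SE, adjusted p = 0.019). Gbe1 rose in Aβ-treated cultures, and the Aβ-treated call of Gbe1 was lost without Aβ-treated replicate 1 (adjusted p = 0.12), without Aβ control replicate 1 (adjusted p = 0.12) or with quantile normalization (adjusted p = 0.0555). Gbe1 passed the test in Ogt cKO cultures with FPKM rescaled to total reads (log2 change -0.91, adjusted p = 0.033), with voom (log2 change -1.09, adjusted p = 0.030), with the replicate block (log2 change -0.70, adjusted p = 0.021) and with the 4 libraries alone (log2 change -0.70, adjusted p = 0.0059). Gbe1 passed the test in AD model cultures with the replicate block (log2 change 0.76, adjusted p = 0.030) and without AD model replicate 1 (log2 change 1.17, adjusted p = 0.014).

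Glycogen phosphorylase releases glucose units, and its brain (Pygb), liver (Pygl) and muscle (Pygm) forms differ in how they are switched on. Pygb was the main form in all libraries. Pygb measured 46.1 and 42.5 FPKM in Ogt cKO libraries, against 90.3 and 109 FPKM in cKO control libraries (log2 change -1.15 ± 0.20 SE, adjusted p = 0.0039). Pygb was at 36.3 and 48.7 FPKM in AD model libraries, against 53.6 and 77.5 FPKM in AD control libraries (log2 change -0.60 ± 0.20 SE, adjusted p = 0.071). For Pygb, Aβ-treated libraries had 36.1 and 37.7 FPKM, against 56.5 and 54.7 FPKM in Aβ control libraries (log2 change -0.58 ± 0.20 SE, adjusted p = 0.049). Pygb fell in Ogt cKO and Aβ-treated cultures, and the Aβ-treated call of Pygb was lost without any 1 of the 4 libraries (adjusted p = 0.12 to 0.18), with no filter (adjusted p = 0.092), with quantile normalization (adjusted p = 0.17), with FPKM rescaled to total reads (adjusted p = 0.12), with voom on recovered reads (adjusted p = 0.11) or with a robust empirical Bayes (adjusted p = 0.0502). Pygb passed the test in AD model cultures with the replicate block (log2 change -0.60, adjusted p = 0.022), without AD model replicate 2 (log2 change -0.81, adjusted p = 0.038) and without AD control replicate 1 (log2 change -0.87, adjusted p = 0.021). Pygl measured 1.95 and 1.39 FPKM in Ogt cKO libraries, against 1.84 and 1.81 FPKM in cKO control libraries (log2 change -0.09 ± 0.17 SE, adjusted p = 0.70). Pygl was at 3.91 and 5.24 FPKM in AD model libraries, against 0.694 and 0.384 FPKM in AD control libraries (log2 change 1.85 ± 0.17 SE, adjusted p = 1.8e-04). For Pygl, Aβ-treated libraries had 4.97 and 4.64 FPKM, against 1.43 and 1.57 FPKM in Aβ control libraries (log2 change 1.21 ± 0.17 SE, adjusted p = 9.1e-04). Pygl rose 8.49-fold in AD model and 3.20-fold in Aβ-treated cultures on group means, from a low level, and its change there exceeded that in Ogt cKO cultures (cKO minus AD difference -1.94 ± 0.24 SE, adjusted p = 0.0012, and cKO minus Aβ difference -1.30 ± 0.24 SE, adjusted p = 0.0025). Pygm, the form also known from astrocytes, was low. Pygm measured 2.33 and 2.31 FPKM in Ogt cKO libraries, against 1.12 and 0.844 FPKM in cKO control libraries (log2 change 0.75 ± 0.20 SE, adjusted p = 0.018). Pygm was at 1.18 and 0.683 FPKM in AD model libraries, against 1.15 and 0.474 FPKM in AD control libraries (log2 change 0.11 ± 0.20 SE, adjusted p = 0.78). For Pygm, Aβ-treated libraries had 0.752 and 0.853 FPKM, against 2.72 and 2.40 FPKM in Aβ control libraries (log2 change -0.98 ± 0.20 SE, adjusted p = 0.0058). Pygm rose in Ogt cKO and fell in Aβ-treated cultures, and the Ogt cKO call of Pygm was lost without Ogt cKO replicate 1 (adjusted p = 0.086), without Ogt cKO replicate 2 (adjusted p = 0.077), without cKO control replicate 2 (adjusted p = 0.11) or with no filter (adjusted p = 0.0506). Of the summed phosphorylase FPKM, Pygl held 9.52% ± 0.105 in AD model libraries and 0.871% ± 0.539 in AD control libraries, and 11.3% ± 0.808 in Aβ-treated libraries and 2.52% ± 0.223 in Aβ control libraries.

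**Figure D5:**
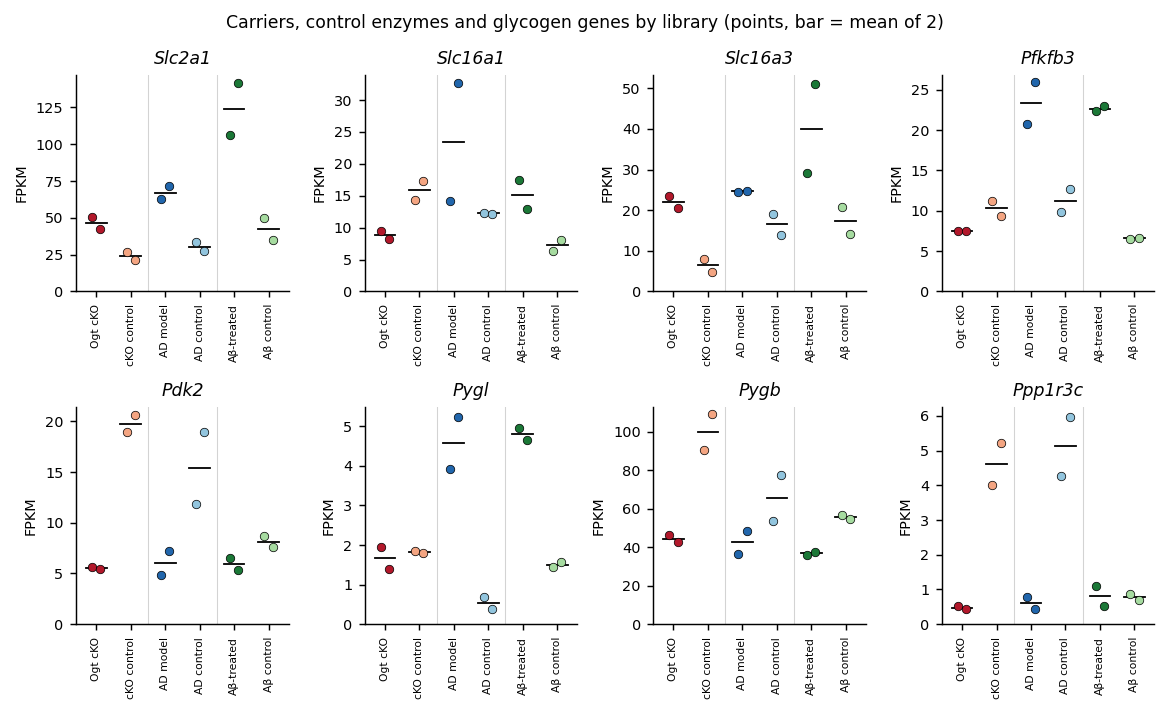
FPKM (y axis) of Slc2a1, Slc16a1, Slc16a3, Pfkfb3, Pdk2, Pygl, Pygb and Ppp1r3c in each library (points) of the 6 groups (x axis), with bars at the mean of 2. Pfkfb3 and Pygl are high in AD model and Aβ-treated libraries, and Ppp1r3c lies at 4.00 to 5.97 FPKM in cKO control and AD control libraries and at most at 1.11 FPKM in the others.

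The changes were also compared between experiments, which share no libraries. Ogt cKO and Aβ-treated changes differed for 20 of the 35 genes (57.1%, against 52.3% of all tested genes), 10 more positive (against 25.7% of all tested genes) and 10 more negative (against 26.6%) in Ogt cKO cultures. Ogt cKO and AD model changes differed for 10 genes (28.6%, against 25.6%, of which 13.7% more positive and 11.9% more negative), of which Gys1 (1.41 ± 0.36 SE, adjusted p = 0.023, lost in 5 of the 8 fits that left out 1 of its libraries, at adjusted p = 0.059 to 0.078), Ldha, Pdha1 and Pdk3 (0.59 ± 0.17 SE, adjusted p = 0.034, lost in 7 of the 8 fits that left out 1 of its libraries, at adjusted p = 0.0506 to 0.13) were more positive in Ogt cKO cultures. Pfkfb3 (-1.39 ± 0.22 SE, adjusted p = 0.0034), Pfkfb4 (-1.03 ± 0.22 SE, adjusted p = 0.012, lost without Ogt cKO replicate 2 at adjusted p = 0.0540), Slc16a1, Pdk1 (-1.04 ± 0.27 SE, adjusted p = 0.025, lost in 5 of the 8 fits that left out 1 of its libraries, at adjusted p = 0.0546 to 0.090), Gbe1 (-1.46 ± 0.38 SE, adjusted p = 0.025, lost in 6 of the 8 fits that left out 1 of its libraries, at adjusted p = 0.0509 to 0.083) and Pygl were more negative there. The difference of Pdk3 was also lost with quantile normalization (adjusted p = 0.066), with FPKM rescaled to total reads (adjusted p = 0.19) and with voom (adjusted p = 0.23), and that of Ldha with quantile normalization (adjusted p = 0.19). Gys1, Ldha, Slc16a1, Pdk1 and Gbe1 lost theirs with no filter (adjusted p = 0.0552 to 0.088). AD model and Aβ-treated changes differed for 4 genes (11.4%, against 6.14%, of which 1.52% more positive and 4.62% more negative). These were Pfkm and Ppp1r3c, more negative in AD model cultures, and Pfkfb4 and Pdk3, more positive there. Of the 20 differences between Ogt cKO and Aβ-treated changes, some were lost in fits that left out 1 library. These were Hk2 (2.03 ± 0.64 SE, adjusted p = 0.026), Pgk1 (1.03 ± 0.33 SE, adjusted p = 0.027), Pfkm (-0.72 ± 0.22 SE, adjusted p = 0.023) and Pgam1 (1.14 ± 0.29 SE, adjusted p = 0.011). Such fits leave 1 library in a group. Those that lost Hk2 gave differences of 1.77 to 2.07 with SE of 0.73 to 0.77, so the loss does not show that 1 library drove it. The differences of Pgk1, Pgam1, Eno1 and Pkm were lost with quantile normalization (adjusted p = 0.28 to 0.96). Leaving out single libraries gave 16 to 20, 3 to 15 and 1 to 11 such genes, in the order of these comparisons. Further genes of the 36 that were not called passed the test in single alternatives. With the 4 libraries of the experiment alone these were Hk1 (log2 change 0.46, adjusted p = 0.0092), Pfkfb2 (log2 change -0.36, adjusted p = 0.046), Gapdh (log2 change 0.62, adjusted p = 0.0078) and Pdha1 (log2 change 0.40, adjusted p = 0.0071) in Ogt cKO cultures. With quantile normalization they were Aldoa (log2 change 0.46, adjusted p = 0.027), Pgk1 (log2 change 0.74, adjusted p = 0.0083), Eno2 (log2 change -0.50, adjusted p = 0.030) and Pkm (log2 change 0.38, adjusted p = 0.026) in Aβ-treated cultures, and with the replicate block Pdk2 in Aβ-treated cultures (adjusted p = 0.027).

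Other genes of the pathway were read from lists of the same fit, and their counts stand against 42.3% of all tested genes called in Ogt cKO (22.6% higher and 19.8% lower), 17.1% in AD model (9.8% and 7.27%) and 35.9% in Aβ-treated cultures (20.8% and 15.1%). Of 8 tested further glycolysis genes, 2 were higher and 2 lower in Ogt cKO, 2 higher in AD model, and 1 higher and 2 lower in Aβ-treated cultures. Hk3, the hexokinase of myeloid cells, had 7.70 and 5.15 FPKM in Ogt cKO libraries, against 24.2 and 23.3 FPKM in cKO control libraries (log2 change -1.76 ± 0.38 SE, adjusted p = 0.0081). In the other experiments it rose, at 31.5 and 70.0 FPKM in AD model libraries, against 3.96 and 6.76 FPKM in AD control libraries (log2 change 2.95 ± 0.38 SE, adjusted p = 0.0011), and at 50.1 and 35.2 FPKM in Aβ-treated libraries, against 5.17 and 7.49 FPKM in Aβ control libraries (log2 change 2.57 ± 0.38 SE, adjusted p = 0.0012). Its direction in each experiment was that of the summed microglia and macrophage markers given above, and also that of the summed oligodendrocyte lineage markers. In Aβ-treated cultures 2 of the 10 microglia and macrophage markers were higher and 2 lower. The part of any of these cells was not tested. Pcx, pyruvate carboxylase, which in brain is an astrocyte enzyme, was the 1 called gene of 3 tested in gluconeogenesis, lower in Ogt cKO (log2 change -1.23, adjusted p = 0.0020) and higher in AD model (log2 change 1.13, adjusted p = 0.0029) and Aβ-treated cultures (log2 change 0.81, adjusted p = 0.0074). Of 9 further genes of pyruvate entry, 2 were lower in Ogt cKO cultures, none was called in AD model cultures, and 1 was higher and 1 lower in Aβ-treated cultures. The 2 lower in Ogt cKO cultures were Pdp1, the phosphatase that reverses the kinases (log2 change -1.14, adjusted p = 0.0032), and its regulator Pdpr (log2 change -0.66, adjusted p = 0.034).

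Of 9 other tested sugar and lactate carriers, 1 was higher and 4 lower in Ogt cKO cultures, 1 was higher in AD model and 2 were higher in Aβ-treated cultures. Emb, a partner protein of monocarboxylate carriers, was among those lower in Ogt cKO cultures (log2 change -1.43, adjusted p = 0.0074), and Slc2a9, a urate and hexose carrier, was higher in AD model (log2 change 0.73, adjusted p = 0.034) and Aβ-treated cultures (log2 change 0.94, adjusted p = 0.0060). Of 19 other glycogen genes, 1 was higher and 8 were lower in Ogt cKO cultures, where 22.6% of all tested genes were higher and 19.8% lower, and the list had a median log2 change of -0.45, against 0.00 over all tested genes. These included laforin Epm2a, a glycogen phosphatase (log2 change -1.41, adjusted p = 0.0045), and Phkg1, a catalytic subunit of phosphorylase kinase (log2 change -0.92, adjusted p = 0.0058). Stbd1, which tethers glycogen to membranes, rose in Ogt cKO (log2 change 1.40, adjusted p = 0.0056) and fell in Aβ-treated cultures (log2 change -1.40, adjusted p = 0.0044). In AD model cultures 1 of the 19 was lower, and in Aβ-treated cultures 1 was higher and 3 were lower.

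Of 21 other genes of the hypoxia response, 4 were higher and 4 lower in Ogt cKO, 2 were higher in AD model, and 6 were higher and 1 lower in Aβ-treated cultures. Over all tested genes, 42.3% were called in Ogt cKO (22.6% higher and 19.8% lower) and 17.1% in AD model cultures (9.8% and 7.27%). In Aβ-treated cultures 35.9% were called (20.8% and 15.1%). The median log2 change of the list was -0.13 in Ogt cKO, -0.16 in AD model and 0.27 in Aβ-treated cultures. Over all tested genes it was 0.00, -0.02 and -0.04, in the same order. Hif1a, which encodes the oxygen-regulated factor itself, had 43.6 and 34.6 FPKM in AD model libraries, against 20.7 and 20.2 FPKM in AD control libraries (log2 change 0.90 ± 0.20 SE, adjusted p = 0.015), and 45.3 and 52.1 FPKM in Aβ-treated libraries, against 6.80 and 9.88 FPKM in Aβ control libraries (log2 change 2.43 ± 0.20 SE, adjusted p = 6.0e-05). It was not called in Ogt cKO cultures, at 13.4 and 14.9 FPKM, against 13.7 and 10.3 FPKM in cKO control libraries. Vegfa, a secreted angiogenic factor, rose in Ogt cKO cultures (log2 change 2.40, adjusted p = 0.0023), while Ndrg1, a stress-induced gene, fell (log2 change -2.48, adjusted p = 0.0030). Egln3, a prolyl hydroxylase that marks the factor for decay, was higher in all 3 experiments (log2 change 1.09, adjusted p = 0.013 in Ogt cKO, log2 change 0.98, adjusted p = 0.034 in AD model, log2 change 1.90, adjusted p = 9.1e-04 in Aβ-treated). Of the 36 genes, the glucose carrier Slc2a1 had that same pattern of calls.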

How the data were processed

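The authors deposited 1 table of FPKM per gene for 12 libraries of cultured adult mouse astrocytes, mapped to mm10 per the submitters' processing notes. Gene length was taken from the same deposited table as another column. The sources used here do not name the aligner, the counter or their settings. FPKM times length gave whole reads within 0.1 for all values, 16418852 to 18705309 reads per library. The library size behind the FPKM was not the total of these reads (total over size 0.886 to 1.10), and 3 reads on a gene of 1 kb correspond to 0.145 to 0.191 FPKM. Median-of-ratios factors computed from the FPKM were 1.01 in all 12 libraries, so the FPKM were already level by that measure. Total over size was 1.10 and 1.07 in Ogt cKO libraries, against 0.921 and 0.907 in cKO control libraries. No 2 libraries were duplicates.

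Genes at 1 FPKM or more in at least 2 libraries (14014 of 54532) were tested with limma 3.58.1 in R 4.3.3 on log2(FPKM + 1), with 1 mean per group over all 12 libraries, a trend and Benjamini-Hochberg adjustment over all tested genes, called at an adjusted p of 0.05, two-sided. The log2 changes are on this scale and understate changes of low genes. Reads recovered from the FPKM served for read counts and in alternatives (voom, rescaling to total reads, shares of reads). Near-identical copies were found with blastn 2.17.0 in GENCODE M21 transcripts, and the overlaps of exons in its annotation. Shares of a step are percent of summed FPKM and so depend on the gene lengths of the table. As a share of reads, with no scaling to length, Ldha made up 93.3% in Ogt cKO and 65.4% in cKO control libraries. By reads Pdk1 exceeded Pdk3 in AD model (36.8% against 29.7%) and Aβ-treated libraries (41.9% against 24.5%), where Pdk3 was first by FPKM. The 36 genes and all lists were chosen with earlier results of these data known. Named with values per library were all genes of steps with several forms and up to 8 called genes per experiment by absolute log2 change, and, of the other lists, up to 3 called genes per experiment by p. The genes whose promoters are printed were chosen after the values were seen.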

Additional observations from a re-analysis of the deposited data

Results flagged for a closer look

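The changes of 4 of the 35 genes differed between the AD model and the Aβ-treated experiment, in limma's test of the difference between the log2 change of AD model over AD control and that of Aβ-treated over Aβ control. Ppp1r3c, the glycogen targeting subunit, had a difference of -1.92 (adjusted p = 0.012). It fell in AD model cultures and was near 1 FPKM or lower in both groups of the Aβ experiment. Pfkm had a difference of -1.03 (adjusted p = 0.031), called lower in AD model and not called in Aβ-treated cultures. Pfkfb4 had a difference of 0.95 (adjusted p = 0.040), called higher in AD model and not called in Aβ-treated cultures. Pdk3 had a difference of 0.83 (adjusted p = 0.028), called lower in Aβ-treated and not called in AD model cultures. With no filter, the differences of Pfkm (adjusted p = 0.056) and Pfkfb4 (adjusted p = 0.082) missed the threshold. With voom, that of Pdk3 did so (adjusted p = 0.053). The difference of Pfkm missed the threshold without AD control replicate 2 or any 1 of the 4 libraries of the Aβ experiment (adjusted p = 0.059 to 0.099). That of Pfkfb4 did so without AD model replicate 1, AD control replicate 2 or any 1 of the same 4 libraries (0.068 to 0.13), and that of Pdk3 without Aβ-treated replicate 1, Aβ-treated replicate 2 or Aβ control replicate 1 (0.067 to 0.11). The difference of Ppp1r3c passed without each library in turn.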

How the results depend on the processing

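Over the whole table, 5934 genes were called in Ogt cKO, 2392 in AD model and 5025 in Aβ-treated cultures. Leaving out 1 library gave 1857 to 3213, 2173 to 2421 and 2674 to 4033 genes, and 11 to 19, 10 to 13 and 9 to 10 of the 36 genes, in place of 22, 12 and 14. For differences between experiments it gave 1 to 11 genes for AD model minus Aβ-treated (4), 3 to 15 for cKO minus AD model (10) and 16 to 20 for cKO minus Aβ-treated (20). With no filter these were 2 and 5 genes for the comparisons of AD model with Aβ-treated and of cKO with AD model. The 4 AD libraries alone called 278 genes, 3 of them among the 36. Quantile normalization reversed Aldoa in Ogt cKO cultures (log2 change -0.068) and in cKO minus Aβ-treated (-0.53, adjusted p = 0.047). Voom on recovered reads moved the median of all genes in Ogt cKO by -0.25 and gave 2203 genes higher and 4196 lower.

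With replicate number as a block (replicate block), 6789, 3058 and 6098 genes were called, 24, 14 and 15 among the 36, and 7 genes differed between AD model and Aβ-treated changes. Same-numbered libraries deviated together at r = 0.033 in the cKO, 0.551 in the AD and -0.169 in the Aβ experiment, and with 2 pairs each the numbers were not taken to pair the libraries. A crossed pairing of the Aβ experiment, added after seeing the data, called 3228 genes and 9 of the 36.

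Under every alternative that tested the gene, 11 of 22 calls held in Ogt cKO cultures. In AD model cultures 3 of 12 did so, and in Aβ-treated cultures 7 of 14. The alternatives were 2 other pseudocounts, 2 filters, 4 scalings or models, robust shrinkage, the block, the 4 libraries alone and each library left out. Among the scalings, median of ratios divided all 12 libraries by the same factor (1.01). It could therefore hardly change a call, and calls that held under it gain nothing from it. The filter at 5 FPKM did not test Pygl and Pygm. Pygl is counted as held in AD model cultures, and both genes in Aβ-treated cultures. The cause of each loss was not tested. Fits without 1 library leave 1 in its group, so a lost call alone does not show that a change rests on that library. Calls of genes outside the 36 were not rerun gene by gene. Genes under 1 FPKM rest on few reads.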
